A study of Homo sapiens with 36 samples.

Results

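The NF-kB system was followed through 10 genes: the subunit genes NFKB1, NFKB2, RELA and RELB, the feedback inhibitors NFKBIA and TNFAIP3, and the inflammatory targets IL8, ICAM1, IL18 and SOD2. Every probe that carried one of these gene names in the bead table was taken, which gave 15 of 47323 probes. IL8 is the older symbol of CXCL8. Of the 15 probes, 13 were detected on at least 6 of 36 arrays and were tested, and they covered all 10 genes. The exceptions were NFKB2 probe 3, detected on 2 Jurkat arrays, and SOD2 probe 3, detected on no array.

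The arrays held RNA from untreated and smoke-exposed cells of a pair of human lines. DLD-1 cells are epithelial and derive from a human colorectal tumour, while Jurkat cells are leukaemic T lymphocytes. Treated cells received cigarette smoke extract (CSE), an aqueous extract of smoke, at 20% for 2 to 6 h, and controls received none. Each line gave 12 control arrays and 6 CSE arrays, spread over 3 BeadChips, the glass slides that carry 12 arrays each. The exposure time of a single array is not among the labels, so short and long exposures cannot be told apart here. The labels also do not say that arrays of a group came from separate cultures, and p-values therefore reflect only how far these samples spread, a spread that may be technical.

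NF-kB proteins are dimeric transcription factors that rest in the cytoplasm, held there by inhibitors of the IkB family. Signals from cytokine receptors, antigen receptors or stress activate the IKK kinases, which mark the inhibitor for destruction and let the dimer enter the nucleus. NF-kB then switches on its own inhibitors, which closes a feedback loop, together with chemokines, adhesion molecules and survival genes. In gut epithelium the pathway is known for driving chemokine release, and in T cells for answering antigen receptor signals.

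The promoters of 4 genes are shown: the subunit gene NFKB2, both feedback inhibitors and the chemokine IL8. All 4 windows hold a motif match, and for NFKB2 the window with the most matches is shown. They do not stand for the genes that passed with CSE, since SOD2 passed in Jurkat, had no match and is not shown. Each window holds the 250 bases before a transcription start in RefSeq on GRCh38.p14, written along the gene's strand. Capitals mark matches, on either strand, to the kB consensus decamer or to the shorter motif GGNNNTTCC, and matches to both forms can overlap. NFKB2 lies on chr10:102394328-102394577 (plus strand), NFKBIA on chr14:35404750-35404999 (minus strand), TNFAIP3 on chr6:137867009-137867258 (plus strand) and CXCL8, which is IL8, on chr4:73740319-73740568 (plus strand).
NFKB2: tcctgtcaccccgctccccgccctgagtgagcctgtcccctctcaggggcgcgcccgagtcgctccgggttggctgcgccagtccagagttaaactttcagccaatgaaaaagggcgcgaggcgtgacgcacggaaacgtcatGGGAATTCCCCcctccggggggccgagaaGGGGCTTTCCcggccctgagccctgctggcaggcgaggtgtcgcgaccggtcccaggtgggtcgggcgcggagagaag
NFKBIA: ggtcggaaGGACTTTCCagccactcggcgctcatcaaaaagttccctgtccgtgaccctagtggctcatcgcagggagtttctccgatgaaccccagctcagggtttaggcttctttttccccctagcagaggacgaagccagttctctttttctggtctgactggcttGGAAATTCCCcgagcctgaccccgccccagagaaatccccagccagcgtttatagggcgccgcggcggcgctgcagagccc
TNFAIP3: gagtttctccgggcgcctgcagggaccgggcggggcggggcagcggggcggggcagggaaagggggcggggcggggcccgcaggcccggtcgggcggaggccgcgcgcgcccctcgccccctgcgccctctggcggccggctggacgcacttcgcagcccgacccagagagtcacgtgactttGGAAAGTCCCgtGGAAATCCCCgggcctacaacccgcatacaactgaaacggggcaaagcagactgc
CXCL8: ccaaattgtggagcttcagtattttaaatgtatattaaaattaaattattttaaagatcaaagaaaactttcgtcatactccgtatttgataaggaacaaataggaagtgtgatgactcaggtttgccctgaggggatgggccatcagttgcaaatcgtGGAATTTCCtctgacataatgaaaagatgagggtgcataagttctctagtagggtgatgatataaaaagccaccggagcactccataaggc

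The NFKB2 window held 3 decamer matches, of which 2 overlap in 1 stretch, at -107 and -106, read on opposite strands. The TNFAIP3 window held 2 decamer matches, and NFKBIA held 1 decamer match and 2 of the shorter motif. The CXCL8 window held no decamer match and 1 match to the shorter motif, at position -91 from the start. Of 35097 promoter windows of the same length, 5.20% held the decamer and 17.1% the shorter motif. NFKB1 held 1 decamer match in one of its 2 windows, NFKB2 held 2 more in another of its 3 windows, and ICAM1 held 1 match to the shorter motif. No match stood in the 2 RELA windows or the 4 SOD2 windows. The promoters of RELB and IL18 were not analysed here. A match is a description of letters and not a measured binding site.

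All levels below are log2 intensities after background correction and quantile normalization, and all differences are on that log2 scale. Between 16012 and 19131 probes were detected per array, and the median bead intensity of an array lay between 97.2 and 121.3. Markers were checked against the line labels. Of the list, 7 of 9 epithelial markers were measured and all 7 were higher in DLD-1, with a median difference of 7.23. Only 1 of these 7 was detected on no Jurkat control array, and EPCAM was detected on 6 of 12 Jurkat controls. Of 9 T cell markers, 8 were measured and all 8 were lower in DLD-1, by a median of -4.94, and 6 of these 8 were detected on no DLD-1 control array. The labels of Jurkat control replicate 7 conflict, since its title gives Jurkat and its cell line entry gives DLD-1. It was treated as Jurkat, and leaving it out changed no call of a member probe.

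With CSE, 3 of the 10 genes had a probe that passed in one of the lines, all of them targets. In DLD-1 cells IL8 rose on 1 of its 2 probes. In Jurkat cells IL18 fell to about 0.503 of its control level, and SOD2 rose on 1 of its 2 tested probes. None of the 5 subunit probes and neither feedback inhibitor passed in limma or in the exact rank test. At an unadjusted p under 0.05, limma gave 3 subunit probes and 1 inhibitor in DLD-1, and 2 subunit probes and no inhibitor in Jurkat. In DLD-1, 1 of 13 member probes passed (7.69%), against 3.71% of all 22612 probes tested, and the median difference of the 13 was -0.03 against 0.00 for all. In Jurkat 2 of 13 passed (15.4%), 1 higher and 1 lower, against 18.1% of all probes, and the medians were 0.11 and 0.02. Over all roles, 7 of 13 member probes lay under that unadjusted level in DLD-1, against 16% of all probes, and 5 of 13 in Jurkat, against 29.6%. Probes of 1 gene read the same RNA and are not independent.

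**Figure D1:**
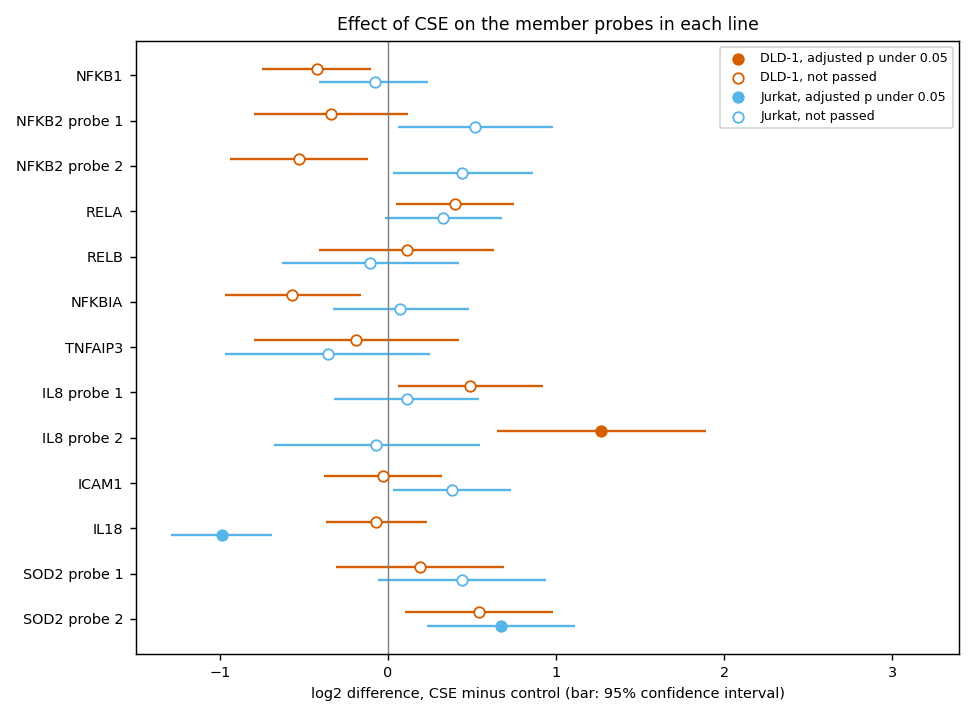
Log2 difference of CSE minus control for each of the 13 member probes in DLD-1 and in Jurkat, with 95% confidence intervals from the limma model (12 control and 6 CSE arrays per line). Filled points passed at an adjusted p under 0.05: IL8 probe 2 in DLD-1 at 1.27, and IL18 at -0.99 and SOD2 probe 2 at 0.67 in Jurkat.

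Among the subunits, NFKB1 encodes p105, the precursor of p50. Its level in DLD-1 controls ran from 9.27 to 10.10 with a median of 9.64, and with CSE from 8.76 to 9.53 with a median of 9.24. The groups overlapped, with 3 of 6 CSE arrays below every control, and the difference of -0.42 (SE 0.16, 95% interval -0.75 to -0.10) missed the threshold (adjusted p = 0.14). In Jurkat the NFKB1 medians were 10.01 in controls and 9.93 with CSE, a difference of -0.08 (interval -0.41 to 0.24, adjusted p = 0.80). RELA, the subunit p65 that carries the activation domain, had a median of 6.63 in DLD-1 controls and 7.04 with CSE, and of 6.70 and 6.97 in Jurkat. Its differences of 0.40 (interval 0.05 to 0.75, adjusted p = 0.22) and 0.33 (interval -0.02 to 0.68, adjusted p = 0.20) did not pass. RELB, partner of p52 in the non-canonical pathway, differed by 0.11 in DLD-1 (interval -0.41 to 0.63) and by -0.11 in Jurkat (interval -0.63 to 0.42).

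NFKB2 encodes p100, the precursor of p52, and the effect of CSE on its probe 2 differed between the lines. On probe 2 the DLD-1 controls ran from 4.74 to 6.57 with a median of 6.08, and the CSE arrays from 4.74 to 5.55 with a median of 5.42. The Jurkat controls ran from 5.14 to 6.17 with a median of 5.46, and the CSE arrays from 5.56 to 6.29 with a median of 5.84. The groups overlapped in both lines, with 1 of 6 CSE arrays just below every control in DLD-1 and 2 of 6 above every control in Jurkat. Neither effect passed on its own in the model of all arrays, at -0.53 in DLD-1 (SE 0.20, adjusted p = 0.15) and 0.44 in Jurkat (SE 0.20, adjusted p = 0.13). The difference between them passed, at -0.97 (SE 0.29, interval -1.56 to -0.39, adjusted p = 0.037). NFKB2 probe 1 gave -0.34 in DLD-1 and 0.52 in Jurkat, and a difference of -0.86 that did not pass (SE 0.32, adjusted p = 0.11). In the fit to the 18 Jurkat arrays alone both probes passed, at 0.52 (adjusted p = 0.032) and 0.44 (adjusted p = 0.035). In DLD-1 probe 2 passed within BeadChip 2 (-0.99, adjusted p = 0.047) and without control replicate 11 (-0.63, adjusted p = 0.050), and without that replicate the difference on probe 1 passed too (-0.96, adjusted p = 0.047).

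The NFKB2 result stood close to the threshold. It was lost when DLD-1 control replicate 4, 6 or 10 was left out, and likewise for replicate 1, 4 or 5 of DLD-1 with CSE and for replicate 1, 4 or 5 of Jurkat with CSE. The adjusted p in those fits reached 0.083. Within BeadChips 1, 2 and 3 the difference was -0.87, -1.56 and -0.71, and none of these passed. The probe was not detected on 2 of 12 DLD-1 control arrays and 1 of 6 DLD-1 CSE arrays. With the authors' deposited normalized values the difference was smaller, at -0.31 (limma adjusted p = 0.043).

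The feedback inhibitors showed no passing change with CSE. NFKBIA encodes IkB-alpha, the inhibitor that NF-kB restores after each activation. In DLD-1 its controls ran from 9.07 to 10.45 with a median of 9.92, and the CSE arrays from 9.12 to 9.74 with a median of 9.27. All 6 CSE arrays lay inside the control range, and the difference was -0.57 (SE 0.20, interval -0.97 to -0.16, adjusted p = 0.11). It passed once the BeadChip was a block in the model (-0.65, adjusted p = 0.048) and without DLD-1 control replicate 11 (-0.65, adjusted p = 0.048). In Jurkat the medians were 9.46 in controls and 9.23 with CSE, while the means differed by 0.07 (interval -0.33 to 0.48, adjusted p = 0.88). TNFAIP3 encodes A20, an enzyme that edits ubiquitin chains and shuts off signalling upstream of IKK. In Jurkat it ran from 6.23 to 9.19 in controls and from 6.26 to 8.33 with CSE, so the groups overlapped almost fully, and the difference was -0.36 (interval -0.97 to 0.25, adjusted p = 0.47). In DLD-1 it was detected on 3 of 12 control arrays and 1 of 6 CSE arrays.

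IL8, the chemokine that draws neutrophils, rose in DLD-1 on probe 2. Its controls ran from 4.56 to 6.71 with a median of 5.63, and the CSE arrays from 5.67 to 8.56 with a median of 6.82. The probe was detected on 8 of 12 control arrays and on all 6 CSE arrays, and 4 of the 6 lay above every control. The rise was 1.27 (SE 0.31, interval 0.65 to 1.89), a 2.41-fold change, with an adjusted p of 0.010 in the limma model. In bulk RNA such a change can come from more RNA per cell or from more cells with the transcript, which cannot be told apart. IL8 probe 1 gave medians of 5.79 and 6.23, with 3 of 6 CSE arrays above every control, and its difference of 0.49 did not pass (SE 0.21, adjusted p = 0.22). It passed without DLD-1 CSE replicate 6 (0.71, adjusted p = 0.037).

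The IL8 call on probe 2 depended on 1 array. Without DLD-1 CSE replicate 3, at 8.56, the rise was 0.93 and did not pass (adjusted p = 0.092). Its spread in DLD-1 was wide, with an SD of 0.84 in controls and 1.09 with CSE, against 0.16 and 0.08 in Jurkat, and the model shares 1 spread over the 4 groups. A fit to the 18 DLD-1 arrays alone kept 1.27 but did not pass (adjusted p = 0.099). Within BeadChips 1, 2 and 3 the rise was 1.20, 1.15 and 0.65, none passing, and probe 1 gave 0.99, 0.51 and -0.57. The normalized values deposited by the authors, none of which lay below 99.8 in linear intensity, gave a smaller rise of 0.55 (limma adjusted p = 0.014). In Jurkat, probe 2 was detected on none of 18 arrays, and probe 1 differed by 0.11 (interval -0.32 to 0.54, adjusted p = 0.80). The DLD-1 effect on probe 2 exceeded the Jurkat value by 1.34 (SE 0.43), which missed the threshold (adjusted p = 0.058). That difference passed without replicate 2, 3, 5 or 6 of the DLD-1 controls and without replicate 4 or 6 of DLD-1 with CSE.

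IL18, a cytokine of the IL-1 family that is made as an inactive precursor, had the lowest adjusted p of the members with CSE, in Jurkat. The controls ran from 12.06 to 13.22 with a median of 12.51. The CSE arrays ran from 11.35 to 12.26 with a median of 11.45, and 5 of 6 lay below every control. IL18 fell by 0.99 on the log2 scale (SE 0.15, 95% interval -1.29 to -0.69), a 1.99-fold decrease, with an adjusted p of 4.2e-06. Before normalization the bead intensities had medians of 6190 in controls and 3147 with CSE. In DLD-1 the IL18 medians were 12.79 and 12.70, and the difference was -0.07 (interval -0.37 to 0.23, adjusted p = 0.90). The effects in the lines differed by 0.92 (SE 0.21, interval 0.49 to 1.34, adjusted p = 0.0075).

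The IL18 fall passed in all 36 fits that left out an array, with values between -1.11 and -0.93. Within BeadChips 1, 2 and 3 it was -1.27, -0.72 and -0.73, and it passed on BeadChip 1 alone, where 3 of the 6 CSE arrays lie. The number of detected probes was also lower with CSE in Jurkat, with a median of 16476 against 17138.5 in controls, and IL18 followed that number across the Jurkat controls (Pearson r = 0.71, n = 12, a description). With the number of detected probes in the model, an alternative chosen after seeing the data, IL18 fell by 0.91 (adjusted p = 1.9e-05).

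SOD2, the manganese superoxide dismutase of mitochondria, is a classic NF-kB target. On probe 2 the Jurkat controls ran from 4.82 to 6.42 with a median of 5.69, and the CSE arrays from 5.05 to 7.24 with a median of 6.31. The groups overlapped, with 2 of 6 CSE arrays above every control. The rise was 0.67 (SE 0.22, interval 0.23 to 1.11), a 1.59-fold change (adjusted p = 0.028). On the brighter probe 1 the Jurkat medians were 8.08 and 8.41, and the difference of 0.44 did not pass (interval -0.06 to 0.94, adjusted p = 0.24). In DLD-1 the differences were 0.19 on probe 1 (adjusted p = 0.81) and 0.54 on probe 2 (interval 0.10 to 0.98, adjusted p = 0.18), and on probe 2 4 of 6 CSE arrays exceeded every control. In the fit to the 18 DLD-1 arrays alone SOD2 probe 2 passed (0.54, adjusted p = 0.040).

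The SOD2 call in Jurkat was not stable. It was lost without Jurkat CSE replicate 3, 4 or 5 (adjusted p = 0.092, 0.14 and 0.054), in the fit to Jurkat arrays alone (adjusted p = 0.098) and with the number of detected probes in the model (0.52, adjusted p = 0.083). Within BeadChips 1 and 2 the difference was 1.18 and 1.31, and within BeadChip 3 it was -0.07. With the authors' deposited normalized values the rise was smaller, at 0.26 (limma adjusted p = 0.031). ICAM1, the adhesion molecule that leukocyte integrins bind, was at background on most arrays and was detected on 1 of 12 control and 2 of 6 CSE arrays in each line. Its differences were -0.03 in DLD-1 (interval -0.38 to 0.32) and 0.38 in Jurkat (interval 0.03 to 0.73, adjusted p = 0.13), and the Jurkat value passed with median scaling (0.55, adjusted p = 0.025). Between the effects in DLD-1 and Jurkat, 2 of 13 member probes differed past the threshold (15.4%), those of NFKB2 and IL18, against 5.60% of all probes.

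**Figure D2:**
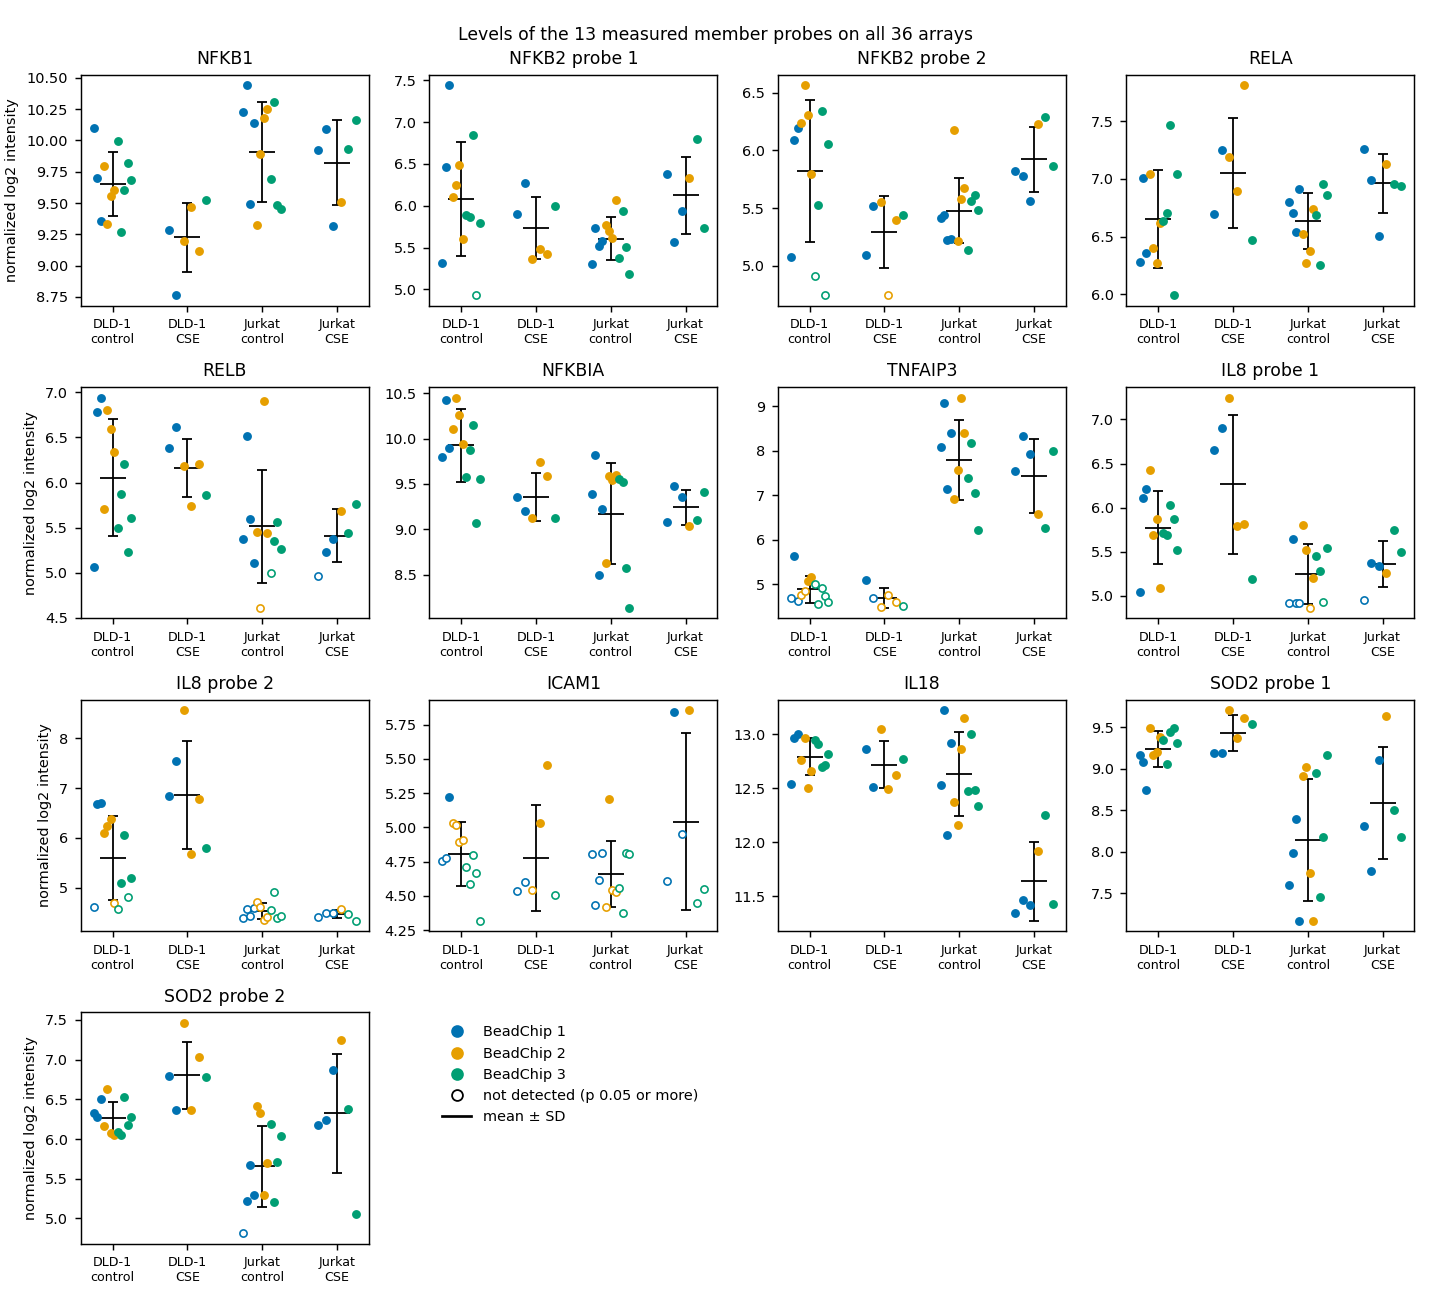
Normalized log2 intensity of the 13 tested member probes on all 36 arrays, in the 4 groups, with points coloured by BeadChip, open points for arrays on which the probe was not detected, and the mean ± SD in black. IL18 in Jurkat with CSE sits between 11.35 and 12.26, TNFAIP3 separates the lines without overlap in controls, and IL8 probe 2 spreads from 5.67 to 8.56 in DLD-1 with CSE.

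Between the untreated lines, both feedback inhibitors differed, in opposite directions, and the targets IL8 and SOD2 were higher in DLD-1. Of 13 member probes 8 passed (61.5%), 7 higher and 1 lower in DLD-1, against 60.0% of all probes, 27.6% higher and 32.3% lower. The median over the 13 probes was 0.48 against -0.04 over all. TNFAIP3 was the probe lower in DLD-1. It ran from 4.56 to 5.64 in DLD-1 controls, median 4.81, and from 6.23 to 9.19 in Jurkat controls, median 7.83. The groups did not overlap, as for 11% of all probes with DLD-1 lower, and TNFAIP3 was lower in DLD-1 by -2.91 (SE 0.25), 7.53-fold, with an adjusted p of 1.2e-13. It was detected on 3 of 12 DLD-1 controls, so that fold rests on a level near background, and the authors' deposited values gave -1.29 (adjusted p = 3.6e-09).

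NFKBIA stood the other way, 0.75 higher in DLD-1 (SE 0.16, 1.68-fold, adjusted p = 0.00011), with 8 of 12 DLD-1 arrays above every Jurkat control. SOD2 was higher in DLD-1 on probe 1 by 1.10 (SE 0.20, 2.14-fold, adjusted p = 9.2e-06), with medians of 9.25 and 8.08, and on probe 2 by 0.60 (adjusted p = 0.0033). IL8 was higher in DLD-1 on probe 1 by 0.52 (SE 0.17, adjusted p = 0.0090). On IL8 probe 2, which no Jurkat control detected, the limma difference was 1.07 (SE 0.25, adjusted p = 0.00028). The Jurkat side of that difference is background, so its size and p-value do not measure a Jurkat level. The authors' deposited values gave a smaller difference of 0.37 (limma adjusted p = 0.0044). The DLD-1 mean on probe 2 stood 1.44-fold above the lowest detected signals of the Jurkat arrays, which was not tested. It is no strict lower bound, because only 8 of the 12 DLD-1 controls in that mean detected the probe. Among subunits, RELB was 0.54 higher (SE 0.21, adjusted p = 0.026) and NFKB2 probe 1 was 0.48 higher (SE 0.19, adjusted p = 0.025) in DLD-1. The RELB call did not survive the removal of replicate 2, 3 or 5 of the DLD-1 controls or replicate 6 of the Jurkat controls, nor that of NFKB2 the removal of replicate 3 or 10 of the DLD-1 controls. NFKB1 (-0.26, interval -0.52 to 0.01), NFKB2 probe 2 (0.34, interval 0.01 to 0.68), RELA (0.02, interval -0.27 to 0.30), ICAM1 (0.15, interval -0.14 to 0.43) and IL18 (0.16, interval -0.09 to 0.40) did not pass. NFKB1 passed without DLD-1 control replicate 1 or Jurkat control replicate 5 or 12, and NFKB2 probe 2 without DLD-1 control replicate 1, 8 or 11 or Jurkat control replicate 5. Both also passed with median scaling (-0.36 and 0.38), with array weights (-0.36 and 0.40) and with the number of detected probes in the model (-0.33 and 0.38).

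Replicates of one group differed widely in several of these genes. The SD of TNFAIP3 over the 12 Jurkat controls was 0.90, above that of 99.5% of all tested probes, whose median SD was 0.30. SOD2 probe 1 in the same arrays had an SD of 0.74 (98.6%) and RELB one of 0.62 (96.9%). In the DLD-1 controls, IL8 probe 2 had an SD of 0.84 (99.5%), NFKB2 probe 1 of 0.68 (98.7%) and RELB of 0.65 (98.3%), while IL18 had one of 0.17 (10.7%). No array of the CSE groups stood apart from its group in a member probe by Dixon's test, in 30 groups tested.

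Some of this spread was shared between members. Over 56 pairs of members in both sets of controls, NFKB1 and TNFAIP3 in Jurkat was the pair that passed by Pearson and by Spearman correlation after adjustment over the 56. Pearson's r was 0.90 (permutation p = 0.00013, adjusted p = 0.0073, n = 12) and Spearman's rho was 0.85 (permutation p = 0.0008, adjusted p = 0.045). Without the 2 arrays farthest from the NFKB1 median r was 0.88, and with each BeadChip centred on its mean it was 0.90. IL18 ran in parallel with NFKB1 (r = 0.81, permutation adjusted p = 0.030; rho = 0.81, adjusted p = 0.054) and with TNFAIP3 (r = 0.79, adjusted p = 0.030; rho = 0.76, adjusted p = 0.054). SOD2 probe 1 ran against IL18 (r = -0.75, permutation adjusted p = 0.048, and rho = -0.78, adjusted p = 0.054). It also ran against NFKB1 (r = -0.75, permutation adjusted p = 0.049, and rho = -0.68, adjusted p = 0.085). These genes also followed the number of detected probes per array, with r of 0.69 for NFKB1, 0.54 for TNFAIP3 and -0.63 for SOD2 probe 1 over the same 12 arrays. The part of that number in the correlations was not tested. NFKBIA ran in parallel with NFKB1 (r = 0.84, permutation adjusted p = 0.020; rho = 0.73, adjusted p = 0.064) and with TNFAIP3 (r = 0.83, permutation adjusted p = 0.019; rho = 0.69, adjusted p = 0.085) in the Jurkat controls. Its arrays left a gap of 35.1% of their range between a lower and an upper set. RELB in Jurkat (40.5%), SOD2 probe 1 in DLD-1 (40.8%) and NFKBIA in DLD-1 (34.9%) left gaps of similar size in the controls, and the other members smaller ones. Without the 2 arrays farthest from the NFKBIA median, r with TNFAIP3 was 0.71. Without the 2 farthest from the NFKB1 median, r with NFKB1 was 0.78, and for that pair no arrays were left out by their NFKBIA level. Across all tested probes, 0.964% had an r of at least 0.9 in size with NFKB1 in the Jurkat controls, and 25.6% had one of at least 0.6. At 0.8 the share was 7.28% for NFKB1, 3.96% for TNFAIP3 and 1.93% for NFKBIA. At 0.7 it was 10.1% for IL18 and 15.2% for SOD2 probe 1. In the DLD-1 controls the closest pairs were NFKB2 probe 1 with RELB (r = 0.78, permutation adjusted p = 0.030; rho adjusted p = 0.054) and RELB with NFKBIA (r = 0.74, permutation adjusted p = 0.037; rho adjusted p = 0.054). NFKB1 ran against RELB in the DLD-1 controls (r = -0.72, permutation adjusted p = 0.05, and rho = -0.75, adjusted p = 0.055). Of all tested probes in the DLD-1 controls, 9.79% had an r of at least 0.7 in size with RELB, 6.70% with NFKBIA and 5.72% with NFKB2 probe 1. Of the 28 pairs in each line, r was positive for 17 in DLD-1 (median r 0.21) and for 16 in Jurkat (median r 0.15). Whether the lines differ in these correlations was not tested.

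**Figure D3:**
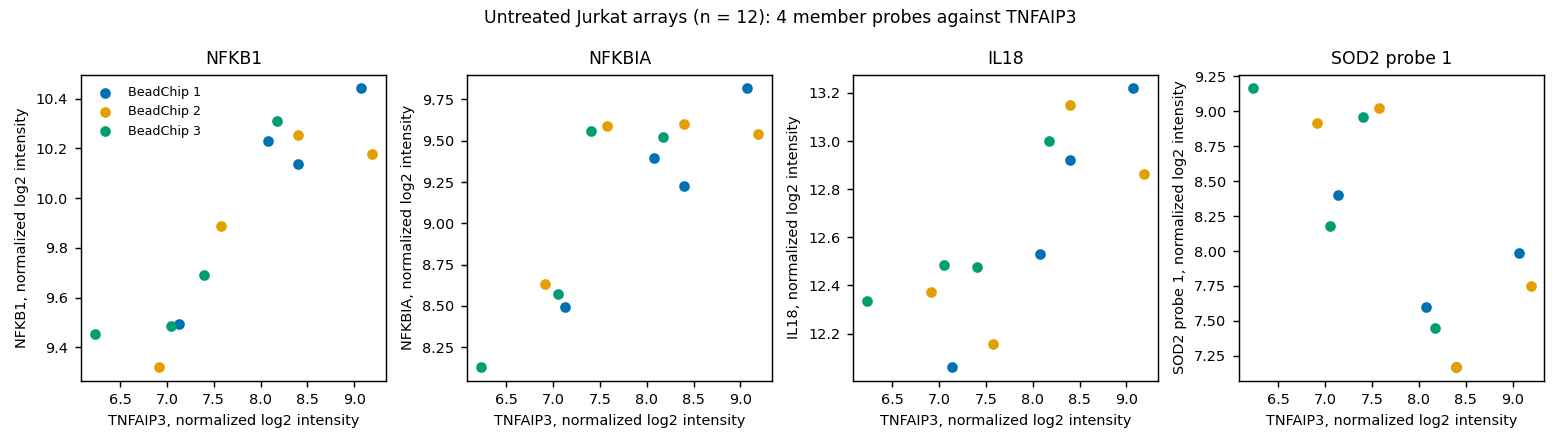
Normalized log2 intensity of NFKB1, NFKBIA, IL18 and SOD2 probe 1 against TNFAIP3 on the 12 untreated Jurkat arrays, coloured by BeadChip. NFKB1 rises with TNFAIP3 (r = 0.90), IL18 rises (r = 0.79), SOD2 probe 1 runs the other way, and NFKBIA rises (r = 0.83) with a gap between a lower and an upper set of arrays.

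The genes most like a member were taken over the 18 arrays of a line by Pearson correlation of the brightest probe, as a description without a test. NFKBIA was most like MYC (0.901), WNK1 (0.838) and KIF1B (0.83) in DLD-1, and most like EGR1 (0.896), TERF1 (0.895) and MKX (0.86) in Jurkat. IL8, by its probe 1, was most like C16orf87 (0.845), FOSB (0.799) and CWC25 (0.772) in DLD-1. IL18 in Jurkat was most like C2orf69 (0.984), FLJ44124 (0.98) and DTWD2 (0.977), and SOD2, by its probe 1, was most like PPIAP8 (0.955), ATL3 (0.948) and NDUFB4P12 (0.947). The points share control and CSE arrays and their depth, so these values mix the treatment with the spread among controls.

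Of 97 further genes of the pathway, 67 were measured. With CSE, 4 rose and 2 fell in DLD-1, with a median of 0.06, and 4 rose and 8 fell in Jurkat, with a median of 0.02. From the authors' deposited normalized values the Jurkat split was 7 and 7. The effect differed between the lines for 3 of the 67 genes, TAB1, IKBKE and RNF31, against 5.60% of all probes. In all 3 it was the CSE effect that was lower in DLD-1 than in Jurkat. A pass in 1 line alone shows no such difference. The shares of all probes called were 1.70% higher and 2.01% lower in DLD-1 and 7.40% higher and 10.7% lower in Jurkat. These shares count probes, while each of the 67 genes was read by its brightest probe. By the brightest probe of all 16028 genes, 691 were called in DLD-1, 3184 in Jurkat and 1041 for the difference. NFKBIE, which encodes IkB-epsilon, rose in both lines. It went from a mean of 5.69 ± 0.46 (SD, n = 12) to 6.81 ± 0.49 (SD, n = 6) in DLD-1, a rise of 1.12 (SE 0.23, 2.17-fold, adjusted p = 0.0023), and from 5.43 ± 0.58 to 6.87 ± 0.29 in Jurkat, a rise of 1.44 (SE 0.23, 2.71-fold, adjusted p = 1e-05). TRAF6, the ubiquitin ligase that links IL-1 and Toll-like receptors to IKK, rose by 0.82 in DLD-1 (SE 0.16, adjusted p = 0.0016) and by 0.75 in Jurkat (SE 0.16, adjusted p = 0.00081).

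In the list of other subunit and IkB genes, 6 of 6 were measured. Beside NFKBIE, Jurkat showed a rise of NFKBIB, which encodes IkB-beta, by 0.53 (adjusted p = 0.019), and a fall of the subunit gene REL, by -0.70 (SE 0.22, adjusted p = 0.024). REL was detected on all 12 Jurkat control arrays and on 4 of 6 CSE arrays. Of 10 kinases and IKK partners, TAB1, a binding partner of the kinase TAK1, fell in DLD-1 (-0.64, adjusted p = 0.013), and MAP3K7, the gene of TAK1, fell in Jurkat (-0.35, adjusted p = 0.021). The TAB1 effect differed between the lines by -1.07 (SE 0.22, adjusted p = 0.0030). The effect on IKBKE, the gene of the kinase IKK-epsilon, also differed between the lines (-0.70, SE 0.22, adjusted p = 0.048), from -0.37 in DLD-1 and 0.32 in Jurkat, neither of which passed. Among 19 adaptors and ubiquitin ligases, BCL10, which carries antigen receptor signals to IKK, rose in DLD-1 (0.79, adjusted p = 0.014), and RNF31, the catalytic unit of the linear ubiquitin ligase, fell there (-0.57, adjusted p = 0.027). RNF31 differed between the lines by -0.94 (SE 0.22, adjusted p = 0.0089). In Jurkat, the ubiquitin ligase gene BIRC3 (-1.0, SE 0.20, adjusted p = 0.00027) and MALT1, the partner of BCL10 (-0.42, adjusted p = 0.042), fell.

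Of 9 deubiquitinases and A20 partners, 7 were measured. OTULIN, which removes linear ubiquitin chains, rose in DLD-1 (0.84, adjusted p = 0.0022). In Jurkat ITCH, a ligase that works with A20, fell (-0.66, adjusted p = 0.0031), as did CYLD, another deubiquitinase of the pathway (-0.44, adjusted p = 0.035), which was detected on 7 of 12 control arrays and on 0 of 6 CSE arrays. Of 11 receptor genes 5 were measured. In Jurkat TNFRSF1A, the first TNF receptor, fell (-0.57, adjusted p = 0.042), as did IL1RAP, a co-receptor for IL-1 (-0.52, adjusted p = 0.027). IL1RAP was detected on 10 of 12 Jurkat control arrays and on 1 of 6 CSE arrays, so its fall ended near background. Of 22 other inflammatory target genes 11 were measured and 1 passed: TAP1, the peptide transporter of antigen presentation, rose in Jurkat (0.53, adjusted p = 0.034). The chemokine CCL20, detected on 4 of 12 DLD-1 controls, differed by 0.51 there (adjusted p = 0.14). CXCL1, CXCL2, CXCL3, CCL2, IL6 and PTGS2 were among the 11 targets left out because too few arrays detected them, and TNF, IL1A and IL1B were left out in the same way among the ligands. Of the partners of the member targets, 6 of 12 were measured, and SOD1, the cytosolic counterpart of SOD2, differed by 0.13 in DLD-1 (adjusted p = 0.79) and by 0.25 in Jurkat (adjusted p = 0.29).

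**Figure D4:**
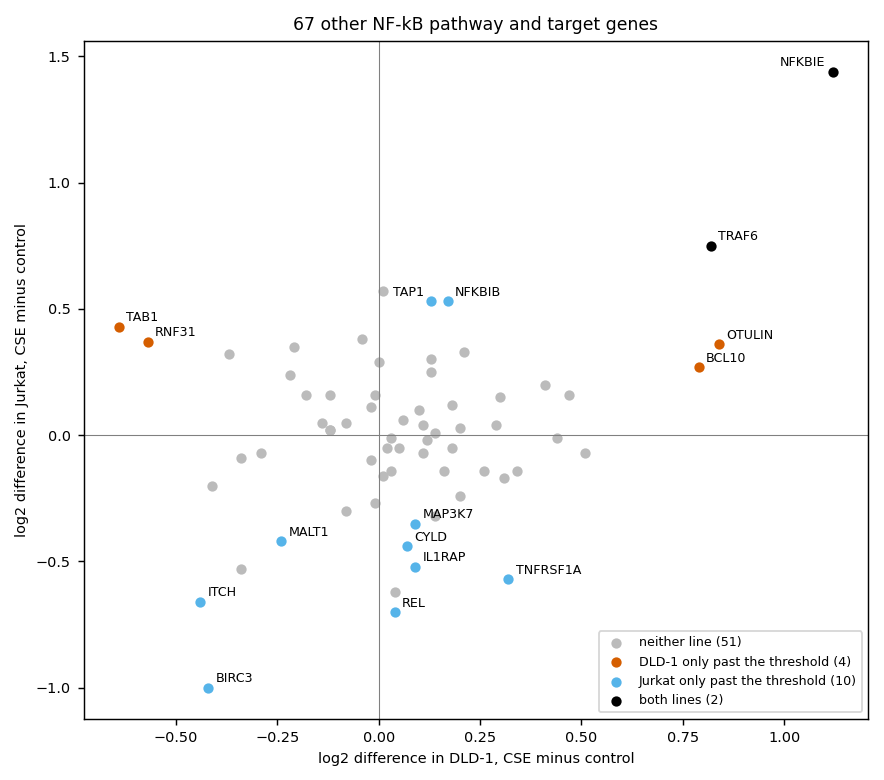
Log2 difference of CSE minus control in Jurkat against that in DLD-1 for the 67 measured pathway and target genes outside the members, each by its brightest probe, coloured by the line in which the gene passed at an adjusted p under 0.05. NFKBIE and TRAF6 passed in both lines and stand at the upper right, and TAB1 and RNF31 stand low in DLD-1 and above 0 in Jurkat.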

How the data were processed

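RNA from DLD-1 and Jurkat cells was read on Illumina bead arrays, 1 sample per array. The authors deposited a table of mean bead intensity per probe, not normalized per the file headers, with a detection p-value per probe and array, and a second table of linear intensity values that the authors had normalized. Which software made them is not stated in the sources used here. The deposited intensity values were background-corrected through the detection p-values with limma's neqc (offset 16), quantile-normalized and put on a log2 scale (limma 3.58.1, R 4.3.3). Log2 values of the authors' normalized table served as an alternative. A probe was tested if its detection p-value lay under 0.05 on 6 arrays or more, which left 22612 probes. The number of arrays limits the precision.

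A limma model with 4 group means was fitted to all 36 arrays, with Benjamini-Hochberg adjustment over all kept probes and a threshold of 0.05. Errors are standard errors of this model unless called SD. Groups came from the source labels, and replicate numbers follow accession order and pair nothing. Correlations used 100000 permutations, two-sided. Every member probe was named. Of the pathway genes, those past the threshold were named in each line, at most the 12 with the smallest p, and a few more were named after their values were seen: CCL20, SOD1 and genes that too few arrays detected. The 3 genes most like a member were given for NFKBIA and for members that passed. Gene symbols were matched through a RefSeq table, which named 13897 of the 16028 genes. The members and lists were chosen with earlier results of these data known. Alternatives covered background, scaling, filters, BeadChip, single arrays, the arrays fitted, weights, prior and an exact rank test.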

Additional observations from a re-analysis of the deposited data

Results flagged for a closer look

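The response to CSE differed between the lines for 2 member probes by a test of the difference itself. For NFKB2 probe 2 the effect in DLD-1 minus that in Jurkat was -0.97 (SE 0.29, limma adjusted p = 0.037), from -0.53 in DLD-1 and 0.44 in Jurkat. For IL18 it was 0.92 (SE 0.21, limma adjusted p = 0.0075), from -0.07 in DLD-1 and -0.99 in Jurkat.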

How the results depend on the processing

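No paired analysis was possible because replicate numbers follow accession order and the labels pair no samples. Leaving out each array in turn gave 353 to 1107 called probes in DLD-1 (main 838; 353 without CSE replicate 3, 439 without CSE replicate 5), 3128 to 4153 in Jurkat (main 4096), 769 to 1512 for the difference of the effects (main 1267; 769 without Jurkat CSE replicate 1, 785 and 795 without DLD-1 CSE replicates 3 and 5) and 13386 to 13589 between control lines (main 13556). Member probes called ran from 0 to 3, 1 to 2, 1 to 3 and 6 to 10 (main 1, 2, 2 and 8), and in DLD-1 the 3 came without control replicate 11, 2 without CSE replicate 6 and 0 without CSE replicate 3. Within BeadChips 1, 2 and 3, DLD-1 gave 33, 779 and 1 called probes and 0, 1 and 0 member probes, the 1 being NFKB2 probe 2, lower. Jurkat gave 1158, 576 and 655 within BeadChips 1 to 3, with 2, 0 and 0 member probes. The difference gave 7, 213 and 0 with 0 member probes, and the control lines 5, 4 and 3 member probes. These fits use fewer arrays. The exact rank test called 233 probes in DLD-1 with 0 members (4 at an unadjusted p under 0.05) and 2722 in Jurkat with 1. In DLD-1 the BeadChip block called 2 member probes and the brightest probe per gene 0. In Jurkat 1 was called without a filter, with array weights, by the brightest probe and with the number of detected probes as a covariate, 3 were called with median scaling and in the fit to Jurkat arrays alone, and for the difference 1 without a filter and by the brightest probe. SOD2 probe 2 in Jurkat reversed to -0.07 within BeadChip 3. The causes were not tested. Of 842 values of member probes under settings other than a left-out array, 761 kept direction and side of the threshold. A further 33 stayed uncalled but changed sign or came to 0.00, 25 of them within a BeadChip, 35 lost the call, 12 gained it and 1 called value reversed. Median scaling moved the median of all probes in Jurkat from 0.02 to 0.17 and the share of calls that were higher from 40.9% to 60.8%, and in DLD-1 that share from 45.8% to 58.0%. IL18 fell by 0.75 (adjusted p = 0.00015) in Jurkat under it. Depth limits ICAM1, TNFAIP3 in DLD-1 and IL8 in Jurkat, all near background.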
